A study of Mus musculus with 686 samples.

Results

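The pancreas of mice that returned alive from the International Space Station (ISS) was compared with the pancreas of their ground controls, over 28 of the 686 small RNA libraries of the series. The members were all libraries labelled pancreas from the live animal return (LAR), found by tissue, arm and extraction in the names of the count columns. They were 10 libraries of spaceflight mice (FL), 8 of habitat ground controls (HGC) and 10 of vivarium ground controls (VGC), each from a separate animal. All mice were BALB/cAnNTac females. At 3 months of age there were 5 FL, 5 HGC and 5 VGC mice, and at 8 months there were 5 FL, 3 HGC and 5 VGC mice. FL mice spent 39.5 days on the ISS and were collected 2 to 4 days after splashdown, following functional tests, so the tissue records flight together with landing and early readaptation. HGC mice lived on Earth in flight habitats at double density with matched temperature, humidity and CO2, and VGC mice lived in standard cages. Mouldy food bars reached FL and HGC. FL mice likely met rough seas on the return, according to the paper, and this had no counterpart in HGC. FL vs. HGC therefore asks about spaceflight in the same housing, and FL vs. VGC about flight plus habitat. Both comparisons use the same FL libraries, so their values are set side by side and their likeness is not a result.

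Libraries held 16.6 M to 121 M counts over 7 RNA classes (median 39.8 M), of which 0.431 M to 3.42 M fell on miRNAs (median 0.947 M). Values of single RNAs are counts per 1 M counts of the same class in that library (CPM), and those printed here are levels unless called a log2 fold change. Where a library lists 0, as many as 3 counts remain possible with 95% confidence, which is 0.877 to 6.96 CPM of miRNA depending on the library, for counting error alone. No replicate number joins mice of different arms.

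The pancreas is mostly acinar tissue, which makes digestive enzymes, crossed by ducts and dotted with endocrine islets. MiRNAs repress mRNAs that pair with their seed, bases 2 to 8 from the 5′ end, and several mark cell types here. MiR-216a, miR-216b and miR-217 lie together on chromosome 11 and mark acinar cells with miR-148a, while miR-375 marks islets and neuroendocrine cells. The MIR-8 family (miR-141, miR-200a, miR-200b, miR-200c, miR-429) marks epithelia, miR-142a and miR-155 mark blood-derived cells and miR-150 marks mature lymphocytes. In 28 libraries the most abundant miRNAs by mean level were miR-375-3p at 70126 CPM, miR-26a-5p at 66063 CPM, let-7c-5p at 60509 CPM, let-7a-5p at 51877 CPM and miR-200c-3p at 39564 CPM. An islet marker and an epithelial miRNA thus stood among the first 5.

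The mature sequences on which the results turn are given 5′ to 3′ with the seed in capitals, from RefSeq on GRCm38.p6, whose coordinates differ from the GRCm39 build that the study mapped to. The acinar group comes first, with miR-216a-5p at chr11:28757018-28757039, miR-216b-5p at chr11:28746204-28746225, miR-217-5p at chr11:28763761-28763783 (all on the plus strand) and miR-148a-3p at chr6:51269829-51269850 (minus strand).
miR-216a-5p: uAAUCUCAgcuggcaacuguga
miR-216b-5p: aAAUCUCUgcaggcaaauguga
miR-217-5p: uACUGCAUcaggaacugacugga
miR-148a-3p: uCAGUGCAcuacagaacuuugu
The 216a and 216b strands differ in the last seed base, and miR-217-5p has another seed altogether.

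The MIR-8 family and miR-96-5p, miR-182-5p and miR-183-5p, a cluster known from sensory organs, are shown because they were followed in each arm. MiR-141-3p lies at chr6:124717917-124717938, miR-200c-3p at chr6:124718324-124718346, miR-200a-3p at chr4:156054911-156054932, miR-200b-3p at chr4:156055685-156055706 and miR-429-3p at chr4:156053916-156053937. The sensory cluster lies at chr6:30169506-30169528, chr6:30165962-30165986 and chr6:30169711-30169732 in the order named above, and all 8 are on the minus strand.
miR-141-3p: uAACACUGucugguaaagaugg
miR-200a-3p: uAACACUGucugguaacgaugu
miR-200b-3p: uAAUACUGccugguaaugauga
miR-200c-3p: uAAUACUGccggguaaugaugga
miR-429-3p: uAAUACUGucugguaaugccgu
miR-96-5p: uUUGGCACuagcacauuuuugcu
miR-182-5p: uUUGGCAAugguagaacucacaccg
miR-183-5p: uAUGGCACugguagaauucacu
MiR-141-3p and miR-200a-3p share a seed and their first 16 bases, and miR-200b-3p, miR-200c-3p and miR-429-3p share the other seed of the family.

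Of the leukocyte strands, miR-142a-3p lies at chr11:87756903-87756925 and miR-155-5p at chr16:84714143-84714165, both on the plus strand. MiR-802-5p, which pancreas, liver and kidney express, lies at chr16:93369737-93369758 on the plus strand. The remaining sequences belong to miRNAs that were high in a single HGC library: miR-5126 at chr1:84695890-84695911 (plus), miR-3473e at chr5:31667296-31667316 (minus), miR-3473b at chr10:41670774-41670793 (plus) and miR-2137 at chrX:72992113-72992133 (plus).
miR-142a-3p: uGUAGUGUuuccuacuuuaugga
miR-155-5p: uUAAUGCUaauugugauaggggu
miR-802-5p: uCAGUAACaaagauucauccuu
miR-5126: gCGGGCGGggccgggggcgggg
miR-3473e: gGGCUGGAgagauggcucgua
miR-3473b: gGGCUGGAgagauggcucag
miR-2137: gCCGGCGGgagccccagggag
MiR-5126 consists of G and C in 22 of 22 bases and miR-2137 in 18 of 21, and miR-3473e and miR-3473b share their first 18 bases.

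The tissue label was checked against miR-216a-5p, miR-217-5p and miR-375-3p before any comparison. MiR-216a-5p stood at 15836, 13170, 1774, 11960, 17493, 19038, 12525, 25.4, 2001 and 484 CPM in FL 1, 2, 3, 4, 5, 11, 12, 13, 14 and 16. It stood at 18868, 15093, 18782, 19097, 17442, 16431, 477 and 11560 CPM in HGC 1, 2, 3, 5, 12, 13, 14 and 16. In VGC 1, 2, 3, 4, 5, 11, 12, 13, 14 and 16 it stood at 9597, 11807, 13403, 14462, 7806, 8823, 13670, 11305, 2215 and 13436 CPM. FL 3, FL 13, FL 14, FL 16, HGC 14 and VGC 14 were the 6 lowest libraries, below every other member of their arms. These 6 also had the lowest miR-217-5p, with 97.7 to 3061 CPM against 6865 to 39574 CPM in the other 22. MiR-375-3p was 1461 to 33930 CPM in the 6 and 30981 to 170610 CPM in the 22, so the ranges overlapped for this marker alone.

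Over 613 miRNAs, the profile of each library was set against the median profiles of 13 tissues as a description. The 22 libraries correlated with pancreas at r of 0.83 or more and with no other tissue above 0.42, whereas the 6 reached 0.08 to 0.57 with pancreas. FL 3 stood nearest to brain (r = 0.76), and it held 68015 CPM of miR-124-3p and 21401 CPM of miR-9-5p, both neuronal. FL 13 was nearest to gonadal adipose tissue (r = 0.47) and held 159781 CPM of miR-143-3p, a smooth muscle and stromal miRNA. HGC 14 held 103647 CPM of the striated muscle miRNA miR-133a-3p and 9899 CPM of miR-124-3p. FL 16 held 31170 CPM of miR-133a-3p and 6451 CPM of miR-124-3p. FL 14, nearest to mesenteric adipose tissue (r = 0.54), and VGC 14 were rich in lymphocyte miR-150-5p, at 91157 and 19596 CPM. In FL 3, FL 13 and FL 14 another tissue correlated better than pancreas, and in HGC 14 brain and pancreas both reached 0.31, so the name of these 4 stands for a library labelled pancreas. Pancreas was still the nearest tissue for FL 16 (r = 0.36, against 0.22 with thymus) and VGC 14 (r = 0.57, against 0.52 with spleen), and the miR-375-3p of VGC 14, 33930 CPM, lay within the range of the 22. Leaving out the 6 takes away 4 of 10 FL libraries but 1 of 8 HGC and 1 of 10 VGC libraries.

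**Figure D1:**
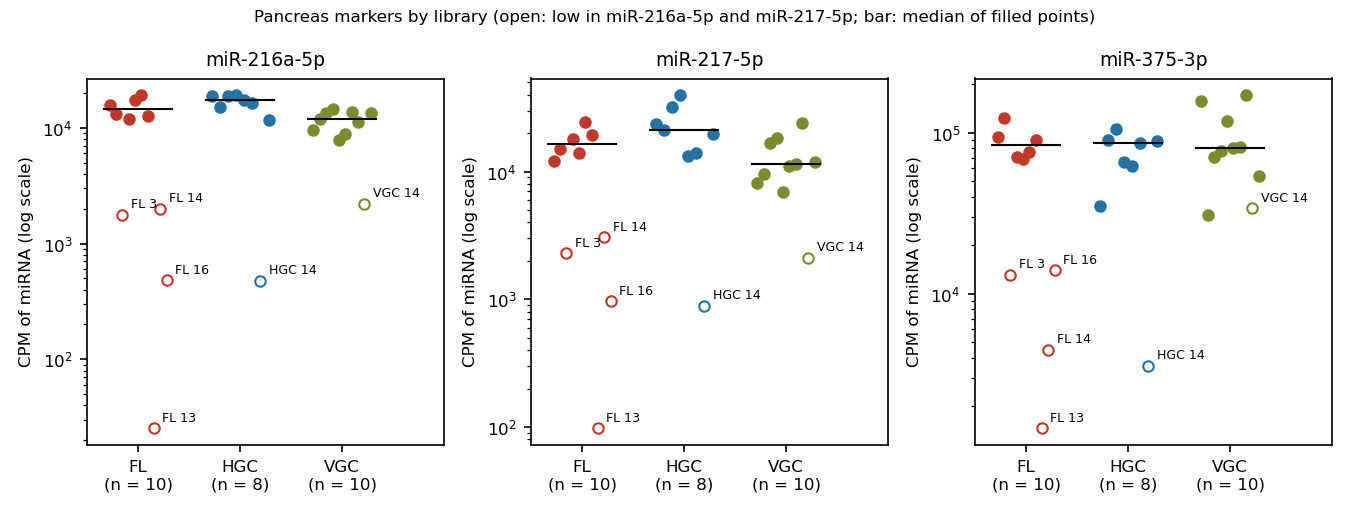
Level of 3 pancreas miRNAs in each library (vertical axis, CPM of miRNA on a log scale) by arm, with open points for the 6 libraries low in miR-216a-5p and miR-217-5p and bars for the median of the filled points. The open points, 4 in FL and 1 each in HGC and VGC, lie below all filled points for miR-216a-5p and miR-217-5p.

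A separate list, made in an earlier analysis of the same counts, holds 11 sequencing pools in which many libraries had the profile of another tissue. FL 3, FL 4, FL 13, FL 16, HGC 2 and HGC 14 were in those pools, and no VGC library was. FL 4 and HGC 2 had pancreas levels of miR-216a-5p (11960 and 15093 CPM), and FL 14 and VGC 14 were outside the pools. Values are for all 28 libraries unless another set is named, and the main ones are also given without the 11 pools (FL 6, HGC 6, VGC 10) and without the 6 low libraries (FL 6, HGC 7, VGC 9). The last set was chosen by miR-216a-5p and miR-217-5p, so the levels of these in the 22 are in part fixed by the choice.

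Shares of the 7 RNA classes are parts of the counts summed over features. A read appears to count once for each identical gene copy, so they are not shares of reads. Ribosomal RNA took the largest part of the counts of most libraries, with a median of 50.7% (6.02% to 63.3%). SnoRNA followed with a median of 19.0% (2.13% to 27.9%), tRNA with 7.49% (3.99% to 84.5%), lncRNA with 7.39% (1.63% to 14.6%), snRNA with 5.00% (2.28% to 20.0%), piRNA with 2.94% (1.98% to 6.45%) and miRNA with 2.36% (1.34% to 7.00%). The miRNA share was 2.93% ± 1.67 (SD, n = 10) in FL and 2.77% ± 1.82 (SD, n = 8) in HGC, a difference well inside the spread of either arm. The tRNA share, which in such libraries counts short fragments, was 23.6% ± 25.8 in FL, 19.8% ± 24.5 in HGC and 8.53% ± 3.22 in VGC. It was highest in FL 13 with 84.5%, HGC 16 with 65.4%, HGC 14 with 52.5%, FL 14 with 45.0% and FL 16 with 40.4%, and at most 20.1% (FL 3) in the other libraries. FL 13, HGC 14, FL 14 and FL 16 are among the 6 libraries low in acinar markers, and the part of this in the tRNA share was not tested. HGC 16 is not among them and had 11560 CPM of miR-216a-5p.

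No class passed the test of its share between FL and HGC (exact permutation tests, two-sided, adjusted p = 0.856 for all 7 classes). Against VGC, rRNA was lower in FL before adjustment (39.0% ± 17.7 against 52.9% ± 8.53, exact permutation p = 0.0349), and adjusted over the 7 classes its p was 0.232. The difference, FL minus VGC, went from -14 percentage points to -7.16 without the 11 pools (exact permutation p = 0.19) and to -3.56 without the 6 low libraries (exact permutation p = 0.18). For tRNA the exact permutation p against VGC was 0.0662 and the adjusted p 0.232. Without the 6 low libraries the tRNA share of FL was 7.73% ± 2.08 (SD, n = 6), below the HGC mean of 15.1% ± 22.2 (SD, n = 7), which still holds HGC 16. With HGC 16 out as well, FL was above HGC again (6.73% ± 1.66, n = 6), as its median was in the 22 (7.49% against 6.90%), so the lower FL mean there rested on HGC 16.

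**Figure D2:**
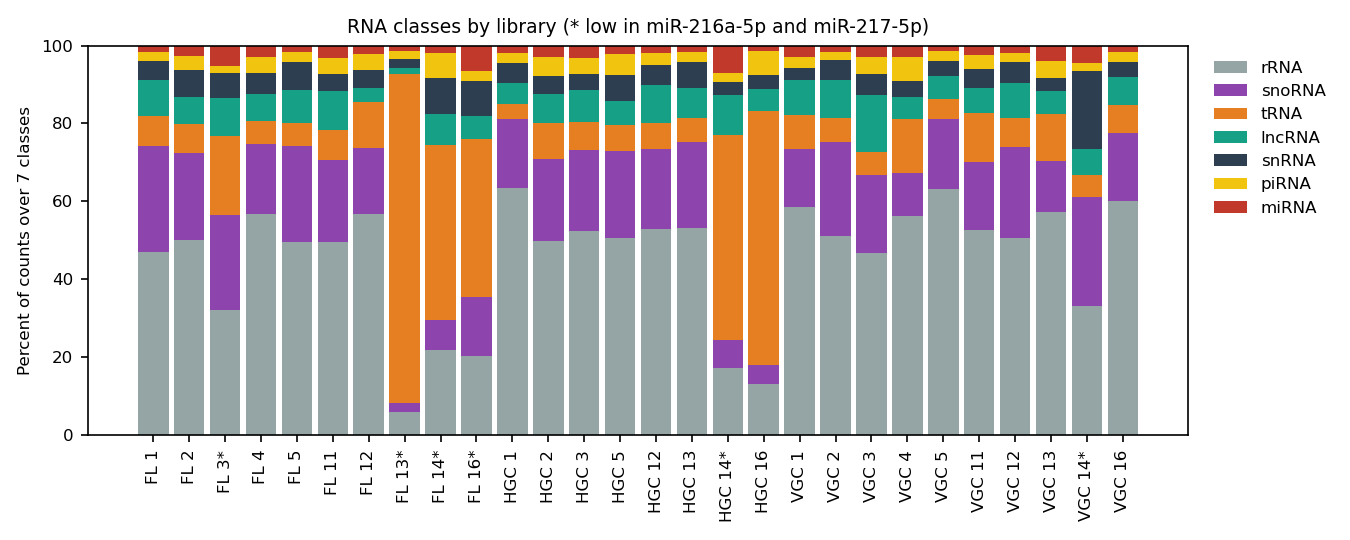
Stacked bars give the percent of counts on each of 7 RNA classes (vertical axis) for each of the 28 libraries, with an asterisk at the 6 libraries low in pancreas markers. FL 13, HGC 16, HGC 14, FL 14 and FL 16 stand out by their tRNA, with 84.5%, 65.4%, 52.5%, 45.0% and 40.4%, and VGC 14 by its snRNA with 20.0%.

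After a filter that asks for 5 or more reads in 10% or more of the libraries of every arm, 587 miRNAs were tested. With edgeR's quasi-likelihood test, no miRNA passed an adjusted p of 0.05 in FL vs. HGC (0% of those tested, 66 at an unadjusted p under 0.05) or in FL vs. VGC (0%, 93 unadjusted). Leaving out 1 library at a time kept the count at 0 in FL vs. HGC, but in FL vs. VGC gave 28 calls without FL 11, 11 without HGC 14 and 8 to 10 without FL 1, FL 2, FL 4, FL 5, FL 12 or FL 14, and 0 without any of the other 20. DESeq2 called 3 miRNAs higher in FL vs. HGC, and 26 higher and 3 lower in FL vs. VGC. Without the 11 pools, edgeR again called 0 of 501 in both comparisons (34 and 20 unadjusted). HGC against VGC also gave 0 of 587 (25 unadjusted). The median log2 fold change of all tested miRNAs was 0.21 in FL vs. HGC and 0.18 in FL vs. VGC with all 28 libraries, and -0.07 and 0.01 without the 6 low ones.

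The 8 acinar strands lay below 0 in FL vs. HGC without exception, with a median log2 fold change of -0.55, and none passed the test. Their median moved to -0.29 without the 11 pools and to -0.21 without the 6 low libraries. In FL vs. VGC it was -0.10 with all libraries, 0.36 without the pools and 0.45 without the 6. The median thus lay below 0 against HGC and above 0 against VGC once the low libraries were out. MiR-216a-5p itself had a log2 fold change of -0.48 (SE 0.67) in FL vs. HGC and -0.12 (SE 0.63) in FL vs. VGC. In the 22 libraries it ranged over 11960 to 19038 CPM in FL (median 14503), 11560 to 19097 CPM in HGC (median 17442) and 7806 to 14462 CPM in VGC (median 11807). FL and HGC covered almost the same range, and VGC reached lower.

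MiR-217-5p, which is co-expressed with miR-216a in acinar cells, had log2 fold changes of -0.73 (SE 0.64) in FL vs. HGC and -0.05 (SE 0.60) in FL vs. VGC. MiR-148a-3p, abundant in exocrine pancreas and liver, ranged from 359 to 28311 CPM in FL (median 17644), from 974 to 34530 CPM in HGC (median 24071) and from 7588 to 31401 CPM in VGC (median 25153). In the 22 libraries its FL range of 16166 to 28311 CPM overlapped that of HGC (16555 to 34530 CPM) and of VGC (22163 to 31401 CPM).

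Of the islet and neuroendocrine list, 7 of 13 strands lay above 0 in FL vs. HGC and 5 of 13 in FL vs. VGC, with medians of 0.15 and -0.13 and no call. The medians were -0.05 and -0.01 without the 11 pools and -0.02 and 0.01 without the 6 low libraries. MiR-375-3p, which restrains insulin secretion in beta cells, ranged from 1461 to 123475 CPM in FL (median 69557), from 3580 to 104550 CPM in HGC (median 76175) and from 30981 to 170610 CPM in VGC (median 78241). Its log2 fold change was -0.09 (SE 0.61) in FL vs. HGC and -0.53 (SE 0.58) in FL vs. VGC. In the 22 libraries these values were 0.32 (SE 0.32) and 0.01 (SE 0.31). MiR-7a-5p, another islet miRNA, had medians of 3130 CPM in FL, 5608 CPM in HGC and 5784 CPM in VGC, and of 5286, 7201 and 6054 CPM in the 22 libraries. The ranges of the 3 arms overlapped for both islet miRNAs.

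All 9 MIR-8 strands lay below 0 in both comparisons, with medians of -0.55 in FL vs. HGC and -0.45 in FL vs. VGC, and none passed the test. The medians were -0.23 and -0.08 without the 11 pools, and -0.12 and 0.08 without the 6 low libraries, with 3 and 5 of 9 strands above 0 in the last set. MiR-141-3p ranged from 22.3 to 8385 CPM in FL (median 4201), from 351 to 12133 CPM in HGC (median 7824) and from 1533 to 13700 CPM in VGC (median 6294). Its log2 fold change in FL vs. HGC was -0.87 (SE 0.61, adjusted p = 0.562), and -0.51 (SE 0.23, adjusted p = 0.426) in the 22. MiR-200a-3p had medians of 1378, 2869 and 3070 CPM in FL, HGC and VGC, and of 2647, 3207 and 3183 CPM in the 22. The FL median of miR-200a-3p came close to the others once the 4 low FL libraries were out. Its log2 fold change in FL vs. VGC went from -0.88 (SE 0.52, adjusted p = 0.446) to -0.37 (SE 0.26). MiR-200b-3p went from -0.44 (SE 0.53) to -0.05 (SE 0.16) in FL vs. HGC and from -0.45 (SE 0.51) to 0.08 (SE 0.15) in FL vs. VGC.

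The sensory cluster lay below 0 in all 5 strands and both comparisons, with medians of -0.71 and -0.75, and none was called. In contrast to MIR-8, its 4 tested strands stayed below 0 without the 6 low libraries, with medians of -0.40 and -0.20, and without the 11 pools, with -0.51 and -0.25. MiR-183-5p had a log2 fold change of -0.50 (SE 0.22, adjusted p = 0.382) in FL vs. HGC and -0.47 (SE 0.21, adjusted p = 0.906) in FL vs. VGC in the 22. Its level there was 587 to 1266 CPM in FL (median 806), 787 to 1613 CPM in HGC (median 1344) and 670 to 1681 CPM in VGC (median 1163). The ranges overlapped, with the FL median lowest. MiR-96-5p in the 22 had 283 to 671 CPM in FL (median 443), 423 to 797 CPM in HGC (median 638) and 465 to 704 CPM in VGC (median 557). MiR-802-5p had medians of 10329, 13930 and 14512 CPM in FL, HGC and VGC, its list of 2 strands had medians of -0.31 and -0.49, and its log2 fold change in the 22 was -0.09 (SE 0.21) in FL vs. HGC and -0.17 (SE 0.20) in FL vs. VGC.

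Without the 6 low libraries the medians of the brain and kidney lists came near 0, while those of striated muscle and liver did not. The 9 brain strands had a median log2 fold change of 1.69 in FL vs. HGC and 2.20 in FL vs. VGC, which became 0.07 and 0.16 without the 11 pools and -0.06 and 0.04 without the 6. MiR-9-5p, a neuronal miRNA, had a log2 fold change of 4.36 (SE 1.06, adjusted p = 0.0565) in FL vs. VGC and -0.19 (SE 0.40) without the pools. It was 21401 CPM in FL 3, 3193 CPM in FL 16 and 2614 CPM in HGC 14, against 32.0 to 443 CPM in the other 25 libraries. Those 3 libraries alone were high in it. The 6 striated muscle strands had medians of 0.40 and 2.40, and 6 of 6 were at an unadjusted p under 0.05 in FL vs. VGC, beside 93 of all 587 miRNAs. Their medians were 0.63 and 0.55 without the 11 pools, a set that leaves out FL 4 too, and 0.90 and 1.32 without the 6 low libraries, with 5 of 5 strands above 0 in both sets and none called. MiR-1a-3p, the main miRNA of skeletal and heart muscle, was 143 to 3065 CPM in the 6 FL libraries (median 783), 103 to 863 CPM in the 7 HGC libraries (median 289) and 66.8 to 1494 CPM in the 9 VGC libraries (median 349), the highest FL value being that of FL 4. The arms overlapped, and the part of muscle tissue in these values was not tested.

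The MIR-154 family, transcribed from an imprinted domain of chromosome 12, lay above 0 in 23 of 23 strands in both comparisons, with medians of 1.05 and 1.18. Of these, 10 and 16 were at an unadjusted p under 0.05 and none was called. Over all 587 miRNAs, 66.1% and 59.3% lay above 0, and 66 and 93 were at an unadjusted p under 0.05. Without the 11 pools the medians were 0.20 and 0.42, and without the 6 low libraries 0.12 and 0.11, with 12 and 13 of 21 strands above 0. With all 28 libraries, medians against HGC and VGC were 0.05 and 0.02 for the MIR-15 family and 0.06 and -0.11 for the MIR-17 family. They were -0.16 and -0.36 for matrix-associated MIR-29, 0.22 and -0.08 for let-7 and -0.06 and 0.42 for the red blood cell list. Without the 11 pools the red blood cell list had -0.29 and -0.28, and MIR-17 had -0.33 against VGC. Without the 6 and HGC 16, let-7 had 0.37 against HGC. The kidney list had medians of 0.91 and 1.02 with all libraries, 0.64 and 0.23 without the 11 pools and -0.10 and -0.18 without the 6. The stroma list had 0.22 and 0.24, 0.32 and 0.37 without the pools, and -0.14 and 0.06 without the 6. For endothelium the medians were -0.10 and -0.00, and for the miR-192 group 0.32 and -0.21, with all 28 libraries. The 2 strands of the heart list, miR-208a-3p and miR-499-5p, had medians of 0.10 and 1.98 with all libraries, 0.29 and -0.00 without the 11 pools, and 2.09 and 1.86 without the 6, and neither was called. In the 22 libraries miR-208a-3p was 92.9 CPM in FL 4, which is not among the libraries kept without the 11 pools, and 0 to 22.5 CPM in the others. The 2 liver strands had medians of 2.06 and -0.81, 1.98 and -0.73 without the pools, and 1.45 and -1.44 without the 6. No list kept a median beyond 1 in size against both controls under all choices of libraries.

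**Figure D3:**
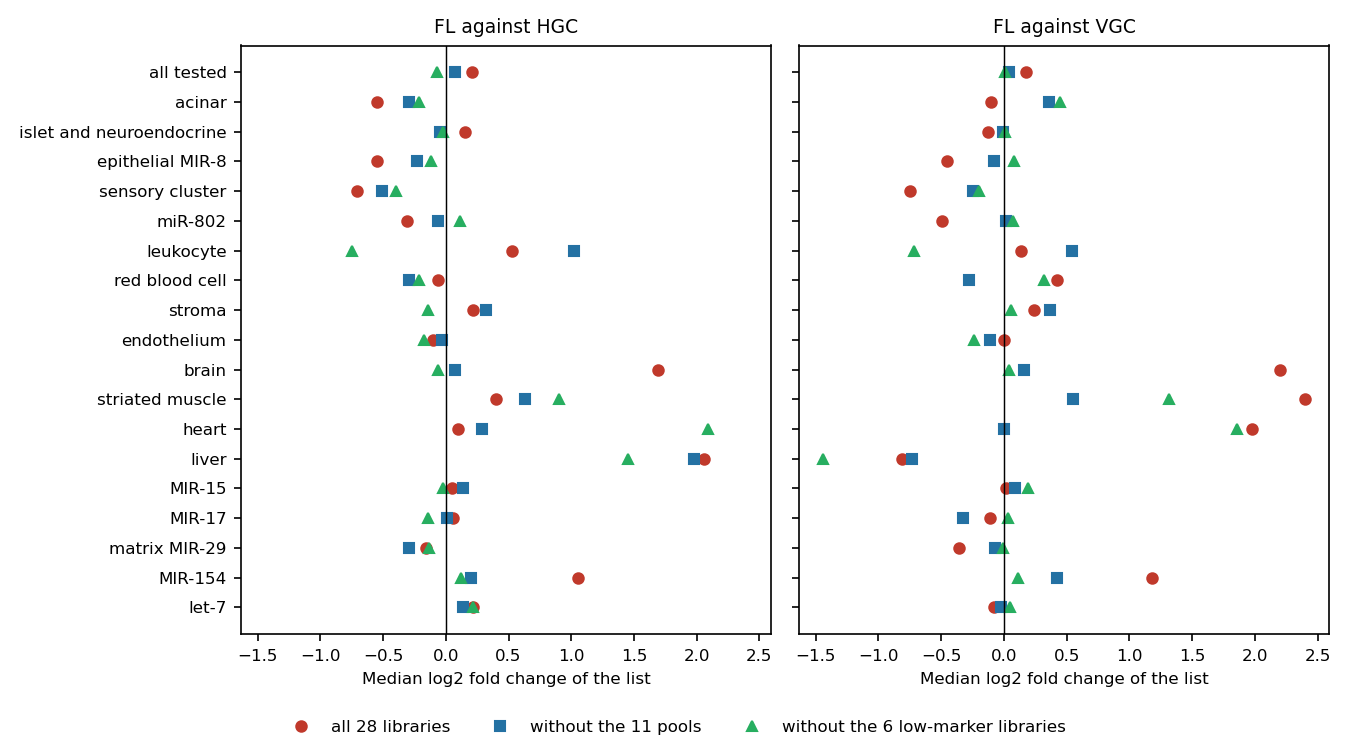
Median log2 fold change of each miRNA list and of all tested miRNAs (horizontal axis) for FL against HGC and for FL against VGC, with circles for all 28 libraries, squares without the 11 pools and triangles without the 6 low libraries. The brain list goes from 1.69 and 2.20 to -0.06 and 0.04 without the 6, and the leukocyte list goes from 0.53 and 0.14 to 1.02 and 0.54 without the pools but to -0.75 and -0.72 without the 6.

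By rank of p in FL vs. HGC, miR-218-5p, encoded in introns of the Slit genes, stood among the first, with a log2 fold change of 2.04 (SE 0.56, adjusted p = 0.298). Its level was 77.2 to 1321 CPM in FL (median 188) and 33.7 to 180 CPM in HGC (median 78.9). FL 3 with 1321 CPM and FL 16 with 876 CPM were the highest. In the 22 libraries it was 157 to 236 CPM in FL (median 180), 33.7 to 180 CPM in HGC (median 65.1) and 40.9 to 414 CPM in VGC (median 100), with log2 fold changes of 1.23 (SE 0.43, adjusted p = 0.288) and 0.34 (SE 0.40). FL thus exceeded most HGC libraries, and VGC overlapped both. MiR-122-5p, made by hepatocytes, had a log2 fold change of 2.13 (SE 0.92, adjusted p = 0.329) in FL vs. HGC and -1.21 (SE 0.82) in FL vs. VGC. VGC 11 held 34201 CPM of it, while the highest FL and HGC values were 7020 and 1204 CPM.

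In FL vs. VGC, miR-490-5p came first, with a log2 fold change of 3.92 (SE 0.87, adjusted p = 0.0534). It was 440 CPM in FL 13 and 1.79 to 36.1 CPM in the other FL libraries, and 0 to 8.23 CPM in VGC. FL 13 thus stood furthest above VGC. In the 22 libraries its log2 fold change was 0.75 (SE 0.45, adjusted p = 0.906). MiR-6988-3p had a negative value among the 10 smallest p, at -1.33 (SE 0.38, adjusted p = 0.0766). It had 5.81 to 22.5 CPM in FL and 11.5 to 71.0 CPM in VGC, and -1.10 (SE 0.36, adjusted p = 0.906) in the 22.

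The study's own rule asks for a log2 ratio of geometric medians beyond 1 and Cohen's d beyond 0.5, without a p-value. Its thresholds were applied here to counts scaled to the total of the 7 classes, with 1 added before the log2. The study scaled to mapped reads, so its values may differ. By these thresholds, miR-122-5p and miR-218-5p were higher in FL vs. HGC, and miR-142a-3p and miR-200a-3p were lower in FL vs. VGC, of 587. Without the 11 pools the rule gave miR-122-5p, miR-218-5p and miR-30a-3p as higher in FL vs. HGC, and miR-124-3p as lower in FL vs. VGC. Without the 6 low libraries it gave miR-1a-3p and miR-218-5p as higher and miR-142a-3p and miR-150-5p as lower in FL vs. HGC, and miR-132-3p as higher and miR-142a-3p as lower in FL vs. VGC. MiR-218-5p alone was named in FL vs. HGC for each choice of libraries, and no miRNA was named in FL vs. VGC for each.

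Without the 6 low libraries, miR-142a-3p, an miRNA of all blood-derived cells, fell in FL vs. HGC by edgeR. It was 724, 405, 329, 601, 442 and 378 CPM in FL 1, 2, 4, 5, 11 and 12. In the 7 HGC libraries it was 559 to 1924 CPM (median 1092), and in the 9 VGC libraries 550 to 1458 CPM (median 1129). FL stood mostly below both controls, with FL 1 and FL 5 inside their ranges. The log2 fold change was -1.22 (SE 0.27, adjusted p = 0.0383) in FL vs. HGC, where 2 of 489 miRNAs were called (0.409%), and -1.12 (SE 0.26, adjusted p = 0.127) in FL vs. VGC, where 0 were called (22 at an unadjusted p under 0.05). Without HGC 16 as well, it was the only call of 482 (0.207%), at -1.31 with an adjusted p of 0.0277. Both sets were chosen after the values were seen. With all 28 libraries its log2 fold change was 0.68 (SE 0.67, adjusted p = 0.693) and 0.04 (SE 0.63, adjusted p = 0.979), and without the 11 pools 1.23 and 0.55. FL 14 alone held 16555 CPM, and without this library the values were -1.11 and -1.75 (adjusted p = 0.0271 in FL vs. VGC, where VGC 14 with 9200 CPM still counts). Without VGC 14 in place of FL 14, the value in FL vs. VGC was 0.78. DESeq2 on all 28 libraries gave -1.02 (adjusted p = 0.0686) in FL vs. HGC and -0.95 (adjusted p = 0.0243) in FL vs. VGC, a call in the lower direction. Over 39 alternatives the sign differed from the first fit in 7 in FL vs. HGC and in 19 in FL vs. VGC, where the first value lay near 0 and leaving out single controls also turned it. FL 14 is also high in miR-150-5p and low in acinar markers.

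The other leukocyte strands were set beside it. Over the list of 8, the median log2 fold change in the 22 libraries was -0.75 in FL vs. HGC and -0.72 in FL vs. VGC, with 2 of 8 strands above 0, beside -0.07 and 0.01 over all tested miRNAs. It lay on the other side of 0 with all 28 libraries, at 0.53 and 0.14, and without the 11 pools, at 1.02 and 0.54 with 7 and 5 of 8 strands above 0, both sets that hold FL 14. The summed level of the list in the 22 was 3337 to 5126 CPM in FL (median 3797), 3229 to 13879 CPM in HGC (median 6560) and 5046 to 9377 CPM in VGC (median 6274). MiR-150-5p was 2315, 1562, 1370, 1184, 2575 and 1913 CPM in the 6 FL libraries, against 1464 to 9501 CPM in HGC (median 2970) and 1701 to 6581 CPM in VGC (median 3015). Its log2 fold change was -1.13 (SE 0.36, adjusted p = 0.233) in FL vs. HGC and -0.81 (SE 0.34, adjusted p = 0.906) in FL vs. VGC. MiR-155-5p, induced in activated lymphocytes and macrophages, was 149 to 337 CPM in FL (median 224), 190 to 706 CPM in HGC (median 487) and 210 to 626 CPM in VGC (median 388), with -0.95 (SE 0.30, adjusted p = 0.233) and -0.75 (SE 0.28, adjusted p = 0.906). MiR-223-3p, which marks myeloid cells, did not share this direction, with 0.07 (SE 0.28) and 0.31 (SE 0.27). In these bulk samples, fewer leukocytes and less of a miRNA per leukocyte cannot be told apart.

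**Figure D4:**
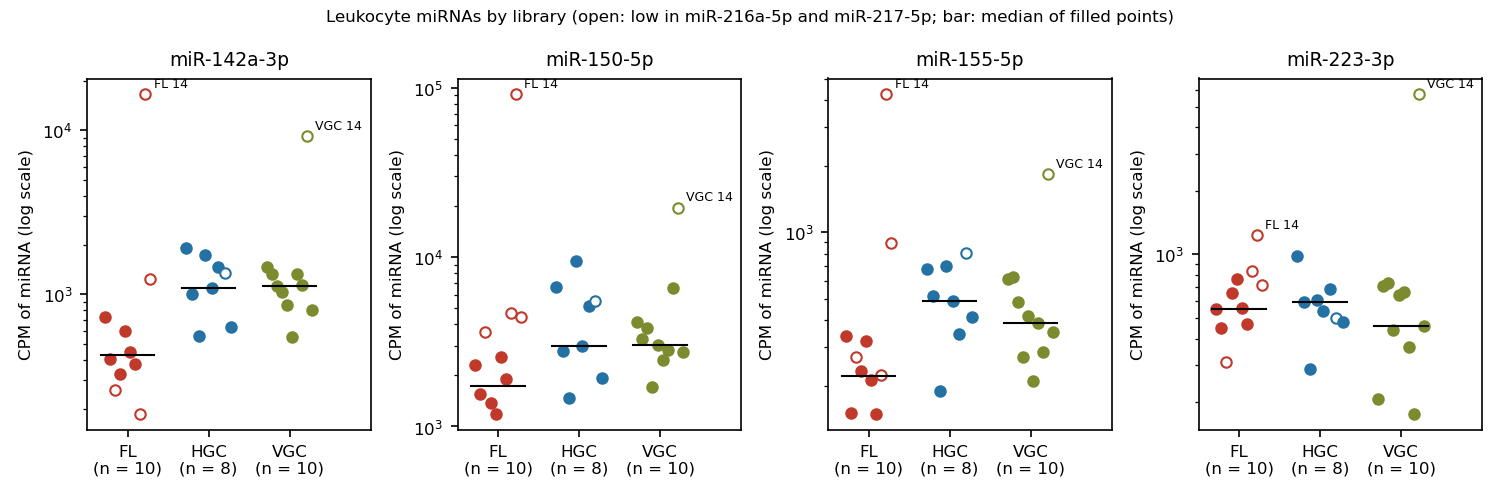
Level of miR-142a-3p, miR-150-5p, miR-155-5p and miR-223-3p in each library (vertical axis, CPM of miRNA on a log scale) by arm, with open points for the 6 libraries low in pancreas markers and bars for the median of the filled points. The filled FL points of miR-142a-3p lie at 329 to 724 CPM, below most HGC and VGC points, while FL 14 lies at 16555 CPM.

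The other miRNA that fell without the 6 low libraries was miR-2137, with a log2 fold change of -3.46 (SE 0.73, adjusted p = 0.0354). It was 6.12 to 18.2 CPM in FL, 10.7 to 531 CPM in HGC and 4.80 to 39.1 CPM in VGC. HGC 16 held the 531 CPM, and without this library the value was -2.05 with an adjusted p of 0.0899. MiR-5126 ranked high in FL vs. HGC with all 28 libraries for the same library, at -3.87 (SE 1.10, adjusted p = 0.298). It was 1170 CPM in HGC 16 and 1.19 to 13.9 CPM in the other HGC libraries.

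By age, HGC 16 was extreme in several of the called miRNAs. At 8 months, where HGC had 3 mice, 6 of 587 miRNAs were lower in FL vs. HGC by edgeR (1.02%): miR-5126 at -5.97 (SE 1.35, adjusted p = 0.0316), miR-3473e at -4.27, miR-3473b at -3.42, miR-7033-5p at -2.69, miR-2137 at -3.55 and miR-3963 at -3.81. DESeq2 called 20 here, 12 higher and 8 lower, and scaling to the total of the 7 classes gave 0. HGC 16 held 11672 CPM of miR-3473e, against 116 to 212 CPM in the other HGC libraries, and 12422 CPM of miR-3473b. Without HGC 16 no miRNA was called, nor without FL 3, FL 4, FL 11 or FL 16, and 2 were called without FL 12. In the fit without HGC 16, miR-5126, miR-3473e, miR-3473b and miR-2137 stood at 0.70, 0.39, 0.24 and -0.85. There miR-7033-5p went from -2.69 to -1.80 and miR-3963 from -3.81 to -2.33 (adjusted p = 0.595 for both). None was called without the 11 pools either, but miR-5126 stood at -6.56, miR-2137 at -3.97 and miR-7033-5p at -2.39, and without the 6 low libraries at -6.56, -3.99 and -2.22. At 3 months 0 were called in FL vs. HGC (47 unadjusted, 5 by DESeq2). FL vs. VGC gave 0 at 3 months (39 unadjusted, 2 by DESeq2) and 0 at 8 months (92 unadjusted, 23 by DESeq2). The difference of the FL vs. HGC effect between ages was itself called for 5 of 587 (0.852%), for 24 by DESeq2, for 89 with scaling to the total of the 7 classes and for 0 without HGC 16. In FL vs. VGC it was called for 0 (56 unadjusted, 1 by DESeq2). For miR-1a-3p, 1 of the 5, this difference was 6.16 with all libraries, 7.06 (adjusted p = 0.166) without HGC 16 and 2.03 (adjusted p = 0.595) without the 11 pools. The summed striated muscle list was 127054 CPM in HGC 14 (3 months), 52541 CPM in FL 3 and 51116 CPM in FL 16 (both 8 months). It was at most 13568 CPM (FL 4) elsewhere. HGC 14, FL 3 and FL 16 are among the 6 low libraries and in the 11 pools. MiR-142a-3p had -1.31 (adjusted p = 0.137) at 3 months and -0.93 (adjusted p = 0.4) at 8 months without the 6 low libraries. With all 28 libraries it had 1.22 and -0.60, and without the 11 pools 1.33 and -0.84, with opposite signs at the ages in both sets.

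Among snoRNAs, which guide the modification of other RNAs, 215 of 620 were higher in FL vs. VGC (34.7%) and none was lower. Of these, 198 lie within Snhg14 at chr7:59307924-59975759 (GENCODE M21, GRCm38), an imprinted locus with many tandem snoRNA copies that neurons express, and 5 lie in Rian on chromosome 12. They are near-copies, 126 of 79 bases and 65 of 94 bases, with 75 distinct sets of counts among the 215, so they are far fewer than 215 independent measurements. DESeq2 called 4 snoRNAs in FL vs. VGC, and edgeR with a replicate block 0. The median log2 fold change of the 215 was 4.23 (3.24 to 4.67). The Snhg14 group took 45.9% of snoRNA counts in FL 3, 20.8% in HGC 14, 6.82% in FL 16 and 1.40% in FL 13, and 0.00939% to 0.492% (median 0.316%) in the other 24. FL 3 and HGC 14 were also the libraries highest in miR-124-3p. Without the 11 pools 0 of 604 were called (11 unadjusted) and the group's median was -0.40, and without FL 3 alone 0 were called with a median of 1.31. In FL vs. HGC no snoRNA was called (56 unadjusted, 0 by DESeq2). Leaving out HGC 14 alone, however, gave 218 calls of 618 (35.3%), 215 higher and 3 lower. The calls in FL vs. VGC thus rested on FL 3, and their absence in FL vs. HGC on HGC 14.

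Among piRNAs, which are best known from the germ line, 5 of 421 were lower in FL vs. HGC (1.19%). The first, oocyte_piRNA243, had a log2 fold change of -3.44 (SE 0.69, adjusted p = 0.00676), which was -0.54 (adjusted p = 0.523) by DESeq2 and -1.15 (adjusted p = 0.867) with a replicate block. It was followed by oocyte_piRNA2349 at -3.45, piR-1095 at -4.12, oocyte_piRNA3445 at -2.57 and oocyte_piRNA3081 at -1.98. HGC 16 held 9236 CPM of oocyte_piRNA243, against 128 to 236 CPM in the other HGC libraries and 89.7 to 203 CPM in FL, and without HGC 16 none of the 5 was called. In that fit oocyte_piRNA243 stood at -0.54, oocyte_piRNA2349 at -0.04, oocyte_piRNA3445 at 0.23 and piR-1095 at 0.74, while oocyte_piRNA3081 stood at -1.45 (adjusted p = 0.427). Without the 11 pools 4 of 405 were lower (0.988%), and without the 6 low libraries 6 of 392 (1.53%). Without HGC 16 in addition, 8 of 370 were lower (2.16%), led by oocyte_piRNA3081 at -2.30 (SE 0.48, adjusted p = 0.015) and piR-1076 at -2.03 (adjusted p = 0.0178). The level of oocyte_piRNA3081 was 13.4, 39.3, 33.8, 24.3, 44.6 and 21.7 CPM in FL 1, 2, 4, 5, 11 and 12. It was 398, 131, 155, 28.6, 71.1 and 72.1 CPM in HGC 1, 2, 3, 5, 12 and 13, so that HGC 5 alone lay within the FL range. In the 9 VGC libraries it was 12.9 to 104 CPM, which spans FL and part of HGC. Among the 8, piR-980 moved with piR-981, piR-1112 and piR-1741 (r of 0.972 to 0.997 over 28 libraries), and piR-1093 and piR-1076 with oocyte_piRNA3081 (0.964 to 0.990), so they are not 8 separate observations. In FL vs. VGC 0 piRNAs were called (26 unadjusted, 3 by DESeq2).

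**Figure D5:**
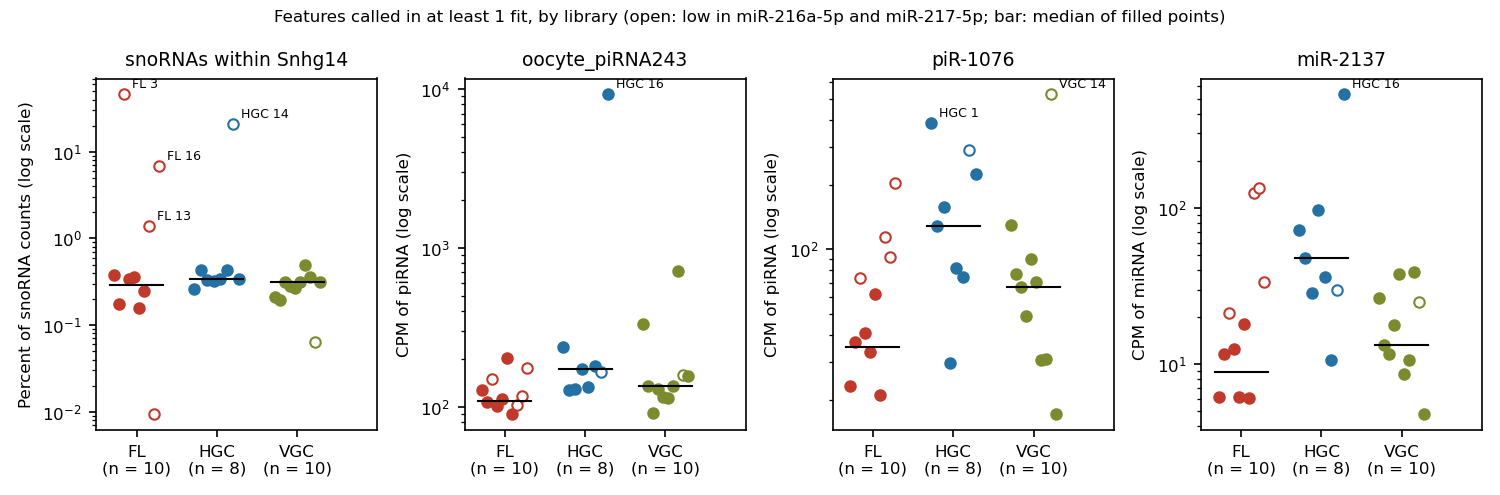
Values by library and arm of the share of snoRNA counts on the Snhg14 group (percent), of oocyte_piRNA243 and piR-1076 (CPM of piRNA) and of miR-2137 (CPM of miRNA), all on log axes, with open points for the 6 libraries low in pancreas markers. FL 3 (45.9%) and HGC 14 (20.8%) stand apart in the first panel and HGC 16 stands apart for oocyte_piRNA243 (9236 CPM) and miR-2137 (531 CPM).

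The other classes gave no edgeR call. Copies of a tRNA, rRNA or snRNA gene share reads, so the features of these classes are not independent. Of 400 tRNAs, 47 in FL vs. HGC and 116 in FL vs. VGC were at an unadjusted p under 0.05 (0 and 69 by DESeq2). By mean, fragments of the glutamate tRNAs were the largest part of tRNA counts in each arm, with 40.7% ± 10.9 in FL, 35.3% ± 9.75 in HGC and 32.0% ± 5.42 in VGC. Glycine followed with 21.4%, 26.7% and 27.2% and valine with 20.2%, 20.8% and 22.2%. These shares overlapped between arms. Glycine was above glutamate in FL 14, HGC 1, HGC 12, HGC 13, VGC 1, VGC 5 and VGC 16. The cysteine tRNA tRNA-Cys-GCA-1-1 had a log2 fold change of 1.34 (SE 0.41, adjusted p = 0.0639) in FL vs. VGC, with 31341 CPM in its highest FL library, and -0.12 (SE 0.27) without the 6 low libraries. Cysteine tRNAs took 22.6% of the tRNA counts of FL 14.

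Of 182 rRNAs, 0 and 42 were at an unadjusted p under 0.05 against HGC and against VGC, and of 672 snRNAs 45 and 12, with 0 called by edgeR or DESeq2 in either class. Of 1734 lncRNAs, 55 and 122 were (8 and 27 by DESeq2). Gm20186 led the lncRNAs in FL vs. HGC, at -3.61 (SE 0.83, adjusted p = 0.0971), with 4700 CPM in HGC 16 and 6.26 to 17.3 CPM in the other HGC libraries. C130071C03Rik, the host of a miR-9 gene, and a transcript of Malat1, a nuclear RNA of many tissues, led in FL vs. VGC, at 4.09 and 3.43 (adjusted p = 0.279 for both). C130071C03Rik was 12652 CPM of lncRNA in FL 3, 3680 CPM in FL 16 and 2118 CPM in HGC 14, and stood at -0.12 in FL vs. VGC without the 6 low libraries.

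Pancreas libraries of mice that were terminated on orbit, with their own ground controls (TERM, 4 FL, 5 HGC and 2 VGC, all of 3 months), were set beside these as a separate collection. Of 450 miRNAs, edgeR called 0 in FL vs. HGC and 0 in FL vs. VGC (46 and 11 unadjusted, 0 and 0 by DESeq2). MiR-216a-5p there was 15.8, 11128, 21792 and 42172 CPM in FL, 23072 to 41712 CPM in HGC and 10747 and 15506 CPM in VGC, so 1 FL library was low there too. MiR-142a-3p had a log2 fold change of 0.11 (SE 1.25) in FL vs. HGC of TERM, an error too wide to set it beside the -1.22 of LAR. Whether the effect differs between TERM and LAR was not tested.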

How the data were processed

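Small RNA libraries were made with the MGIEasy kit and sequenced on a BGISEQ instrument, and the authors mapped reads with miRMaster 2.0 to GRCm39 and miRBase 22.1. The authors deposited raw counts per feature and library. The miRNA values are estimated counts as deposited, since 0.684% of them carry a fraction, and were rounded for the count tests, while the counts of tRNA, rRNA, snRNA, snoRNA, piRNA and lncRNA are whole. Tables of circRNA and scaRNA were not used here. The 5 most abundant tRNA features, copies of 1 glutamate tRNA, had the same mean of 38469 CPM, and their counts are whole. Reads of identical copies thus appear to be counted for each copy.

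Of the 686 libraries, 28 were LAR pancreas, grouped by arm from the labels, with 16.6 M to 121 M counts each. Features with 5 or more reads in 10% or more of the libraries of every arm were fitted per class with edgeR 4.0.16 (limma 3.58.1, R 4.3.3), TMM factors and quasi-likelihood tests over the 3 arms, with Benjamini-Hochberg adjustment at 0.05. DESeq2 1.42.0 was an alternative. P-values measure the spread between mice. Shares of RNA classes were compared by two-sided exact permutation tests and adjusted over 7 classes, with Python 3.11.15, numpy 2.4.6, pandas 2.3.3, scipy 1.17.1 and matplotlib 3.10.9. The edgeR fit of miRNAs was also run on counts simulated for the 22 libraries. That simulation had 1 spread for all miRNAs and no extreme library, so it does not bear on the fits of all 28. Alternatives were leaving out libraries, DESeq2, other scaling and filters, a replicate block and age as a covariate.

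Named features were the strands of the lists, the 10 smallest adjusted p beyond a log2 fold change of 1 per comparison and class, and the 5 most abundant per class. MiR-3473b, miR-3473e, miR-7033-5p, miR-3963 and the Snhg14 group were named after their values were seen. The members and lists were chosen with earlier results of these data known. The low libraries were those with miR-216a-5p and miR-217-5p both under 4282.5 and 4548.6 CPM, the median of the 28 divided by 3, and leaving these out, with or without HGC 16, was added after the data were seen.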

Additional observations from a re-analysis of the deposited data

Results flagged for a closer look

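In 78 groups of 4 to 10 libraries, 32 had a highest or lowest library far from the others of its arm by Dixon's criterion at 95%, where chance gives about 1 in 20. Many of the measures were named because a library was extreme in them, so the number of flags is not to be read against that rate. FL 3 was flagged for 68015 CPM of miR-124-3p and for 45.9% of snoRNA counts on the Snhg14 group. HGC 14 was flagged for a miRNA share of 7.00%, for 477 CPM of miR-216a-5p, for 9899 CPM of miR-124-3p and for 20.8% of snoRNA counts on the Snhg14 group. FL 13 stood apart by its tRNA share of 84.5%, its 121 M counts and 59.4 CPM of miR-5126.

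FL 14 stood apart by 16555 CPM of miR-142a-3p, 91157 CPM of miR-150-5p and a piRNA share of 6.45%. VGC 14 did so by 9200 CPM of miR-142a-3p, 19596 CPM of miR-150-5p, 138 CPM of miR-96-5p, 475 CPM of oocyte_piRNA3081 and an snRNA share of 20.0%. FL 16 had 163 CPM of piR-1095 and 211 CPM of oocyte_piRNA3081.

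HGC 16 was flagged for 1170 CPM of miR-5126, 531 CPM of miR-2137, 9236 CPM of oocyte_piRNA243, 2279 CPM of oocyte_piRNA3445, 463 CPM of oocyte_piRNA2349 and 2799 CPM of piR-1095. VGC 13 had 31.9 CPM of miR-5126, 711 CPM of oocyte_piRNA243 and 124 CPM of oocyte_piRNA3445. VGC 11 was flagged for 34201 CPM of miR-122-5p, VGC 4 for a piRNA share of 6.25%, VGC 3 for an lncRNA share of 14.6% and VGC 5 for 78.8 M counts.

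The FL vs. HGC effect differed between 8 and 3 months by the interaction test of edgeR for 5 miRNAs. The differences of log2 fold changes, 8 minus 3 months, were 6.16 for miR-1a-3p (adjusted p = 0.0376), -5.22 for miR-3473b (adjusted p = 0.0123), -6.84 for miR-3473e (adjusted p = 0.00989), -7.42 for miR-5126 (adjusted p = 0.0309) and -4.59 for miR-709 (adjusted p = 0.0309). None of the 5 was called without HGC 16, without the 11 pools or without the 6 low libraries. Without HGC 16 the differences were 7.06 for miR-1a-3p, -1.56 for miR-3473b, -2.17 for miR-3473e, -0.75 for miR-5126 and -2.10 for miR-709, so that of miR-1a-3p was larger and the others smaller. They were, without the 11 pools, 2.03, -4.06, -5.75, -6.69 and -4.56 in the same order, and without the 6 low libraries 2.57, -3.20, -4.01, -6.06 and -3.02. Both of these sets leave out HGC 14, FL 3 and FL 16, the libraries highest in striated muscle miRNAs.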

How the results depend on the processing

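Counts of edgeR calls are given first under other choices of libraries. In miRNA FL vs. HGC (0), leaving out the 6 low libraries gave 2, and leaving out HGC 16 as well gave 1. SnoRNA FL vs. VGC (215) fell to 0 without the 11 pools, without these pools and FL 14 and VGC 14, without the 6 low libraries and without the 6 and HGC 16. PiRNA FL vs. HGC (5) gave 8 without the 6 and HGC 16. At 8 months FL vs. HGC (6) and in the age interaction of FL vs. HGC (5), the count was 0 without the 11 pools, without the 6, and without the 6 and HGC 16, although in the first 2 of these sets miR-5126 at 8 months was -6.56 in both, against -5.97 with all libraries and 0.11 in the third. In TERM FL vs. HGC (0), leaving out the 11 pools and FL 1 gave 1.

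Under DESeq2 the miRNA counts were 3 in FL vs. HGC and 29 in FL vs. VGC, and by age 5 and 2 at 3 months, 20 and 23 at 8 months and 24 and 1 for the interaction. DESeq2 gave 69 tRNAs in FL vs. VGC, 4 snoRNAs in FL vs. VGC, 3 piRNAs in each comparison, and 8 and 27 lncRNAs. Scaling to the total of the 7 classes gave 7 tRNAs in FL vs. VGC, 3 lncRNAs in FL vs. HGC, 0 miRNAs at 8 months in FL vs. HGC and 28 in FL vs. VGC, and 89 for the interaction in FL vs. HGC. With no filter there were 16 miRNAs in FL vs. VGC, 18 and 16 piRNAs, and 52 and 11 lncRNAs. The cause of these differences was not tested.

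Mice of different arms share replicate numbers but are different animals. Over 26 pairs of the same number, deviations from the arm means correlated at -0.35 to 0.47 (median 0.105), 13 pairs were over 0.1 and 3 correlated best with their own number, so the numbers do not pair the mice. With a replicate block, 0 snoRNAs were called in FL vs. VGC and 0 piRNAs in FL vs. HGC, and the block changed no other count of calls.

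Leaving out each library in turn gave 0 miRNAs in FL vs. HGC throughout, 0 to 28 in FL vs. VGC (28 without FL 11, 11 without HGC 14), 0 to 1 at 3 months in each comparison, 0 to 9 at 8 months in FL vs. HGC, 0 to 11 at 8 months in FL vs. VGC, 0 to 16 and 0 to 1 for the interactions, and 0 to 3 in TERM FL vs. HGC (3 without FL 4). Of the other classes, only FL 3, FL 13, HGC 14 and HGC 16 were left out in turn. This gave 0 to 14 tRNAs in FL vs. VGC (14 without HGC 14), 0 to 218 snoRNAs in FL vs. HGC and 0 to 216 in FL vs. VGC, 0 to 13 piRNAs in FL vs. HGC (13 without HGC 14, 0 without HGC 16), 0 to 1 in FL vs. VGC and 0 to 3 lncRNAs in FL vs. HGC.

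Differences of class shares (FL minus control, percentage points) that changed sign were, against HGC, tRNA with -1.88 without the 11 pools and -7.37 without the 6, rRNA with 3.65 without the 6, snoRNA with -1.04 by medians, and lncRNA with 0.651 without the pools, 0.41 without the 6 and 0.143 without the 6 and HGC 16. Against VGC they were miRNA with -0.438 without the pools, -0.241 by medians and -0.0788 without the 6, tRNA with -1.1 without the 6, snoRNA with 1.34 without the pools, 1.8 by medians and 4.07 without the 6, and lncRNA with 0.468 by medians. None of these shares had passed its test. Among single RNAs that were called in the first fit, oocyte_piRNA3445 in FL vs. HGC turned to 0.00 without the 6 and HGC 16, 0.23 without HGC 16 (range without single libraries -3.02 to 0.23) and 0.26 by DESeq2, oocyte_piRNA2349 to 0.03 without the 6 and HGC 16, (range -3.90 to -0.04), and piR-1095 to 0.74 without HGC 16 (range -4.66 to 0.74) and 0.02 by DESeq2. Of single miRNAs without a call, the sign differed in 7 (FL vs. HGC) and 19 (FL vs. VGC) of 39 alternatives for miR-142a-3p, in 1 and 8 for miR-216a-5p, in 0 and 11 for miR-217-5p, in 10 and 3 for miR-375-3p, in 1 and 0 for miR-200a-3p, in 1 and 4 for miR-200b-3p, in 0 and 3 for miR-2137 and in 3 and 6 of 38 for miR-5126, and in none for miR-141-3p, miR-96-5p and miR-802-5p.

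Of the other values, 408 counts and shares stayed within 1.5 times the count or 1 SD of the share, and of the single RNAs 943 values kept their side of the threshold, 21 lost it and 6 gained it. With 6 FL libraries left, small changes may go undetected, and the size that could be detected was not estimated.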
